A study of Mus musculus with 6 samples.

Results

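The expression of 10 integrin subunit genes of macrophages was followed in RNA sequencing of mouse bone marrow-derived macrophages. They were taken by symbol (Itga4, Itga5, Itga6, Itgal, Itgam, Itgav, Itgax, Itgb1, Itgb2 and Itgb3), and all 10 were found among the 21878 genes of the count table. The cells were grown from wild-type C57BL/6 marrow in 50 ng/mL macrophage colony-stimulating factor. For 48 h both groups shared medium with the mouse lung carcinoma line LLC across a membrane with 0.4 µm pores, after which fresh medium was given. The plant sesquiterpene β-elemene was then added to one group at 100 µg/mL for 24 h and the same volume of phosphate-buffered saline (PBS) to the other, with 3 libraries in each. No group without LLC cells was part of the comparison, and the library names carry M1 for β-elemene and M2 for PBS, letters that the labels do not explain. The labels do not say that the 3 libraries of a group came from separate cultures or animals, so p-values measure the spread between libraries, which may be technical.

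Integrins are surface receptors made of 1 alpha and 1 beta subunit, and the pairing sets what a cell can hold on to. In leukocytes the beta subunit Itgb2 (CD18) pairs with Itgal (CD11a), Itgam (CD11b) or Itgax (CD11c) to bind ICAM molecules, complement fragments and fibrinogen. Itgb1 (CD29) pairs with many alpha subunits, among them the VCAM-1 receptor subunit Itga4, the fibronectin receptor subunit Itga5 and the laminin receptor subunit Itga6. Itgav takes Itgb1, Itgb3 or other beta subunits and binds ligands such as vitronectin, osteopontin and latent TGF-beta. These are transcript levels, and protein at the surface was not measured.

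The promoter windows of Itga4, which had the largest rise of the 10 members, and of Itgam and Itgax, which lie next to each other and both fell slightly, are shown for their contrast. Each is the 250 bases before the start site that the window table gives (GRCm38.p6), on the plus strand, with motif matches in capitals. That site can differ from the RefSeq gene start: the Itgax gene starts at 128129526, so the end of its printed window lies inside the gene.
Itga4, chr2:79255176-79255425: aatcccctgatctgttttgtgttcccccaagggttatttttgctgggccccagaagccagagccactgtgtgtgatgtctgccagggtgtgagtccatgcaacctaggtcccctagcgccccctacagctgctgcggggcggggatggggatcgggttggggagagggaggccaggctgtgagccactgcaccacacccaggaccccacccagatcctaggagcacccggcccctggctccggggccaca
Itgam, chr7:128062390-128062639: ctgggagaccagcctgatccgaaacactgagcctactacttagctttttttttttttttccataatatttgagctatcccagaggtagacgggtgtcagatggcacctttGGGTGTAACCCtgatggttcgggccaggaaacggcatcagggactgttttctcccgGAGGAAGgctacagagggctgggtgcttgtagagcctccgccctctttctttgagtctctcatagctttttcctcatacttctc
Itgax, chr7:128129300-128129549: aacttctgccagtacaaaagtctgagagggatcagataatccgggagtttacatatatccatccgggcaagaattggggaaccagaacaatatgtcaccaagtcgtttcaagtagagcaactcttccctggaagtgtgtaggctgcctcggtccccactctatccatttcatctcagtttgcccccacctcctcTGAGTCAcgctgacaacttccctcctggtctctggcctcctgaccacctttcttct
Windows of 300 bases, reaching 50 bases past the start site, were searched on both strands for an AP-1 motif (TGANTCA), an interferon-response-like motif (GAAA, 2 bases of any kind, GAAA), an NF-kB-like motif (GGG, 5 bases of any kind, CC) and a PU.1-like motif (GAGGAAG). Of the 10 members, 6 had a window in the table (Itga4, Itga5, Itgam, Itgav, Itgax and Itgb1). The Itgav window (chr2:83724147-83724446) lies wholly inside its RefSeq gene, which starts at 83722303. Itgax held the AP-1 motif, which 7.81% of the 32851 windows of all genes hold. Itgam and Itgav held the PU.1-like motif (13.6% of all windows) and the NF-kB-like motif (50.8% of all windows), and in Itgam the 2 NF-kB-like matches overlap each other on opposite strands. Itga4, Itga5 and Itgb1 held none of the 4 motifs, and 0 of the 6 windows held the interferon-response-like motif (3.44% of all windows). These matches describe letters in a window and are not evidence of binding.

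All 10 members differed between the groups, 5 higher and 5 lower with β-elemene (edgeR quasi-likelihood test, Benjamini-Hochberg adjusted p below 0.05 over 11459 genes tested). The response of the cells was broad: 76.7% of all genes tested passed, made up of 36.6% of all genes tested that were higher and 40.2% that were lower, and the members' 10 of 10 stands against that background. At least a 2-fold difference was found for 6 of the 10 members, 3 in each direction, where 35.3% of all genes tested passed with such a difference. Libraries of the 2 groups did not overlap for any member, as for 79.9% of all genes. The median log2 fold change of the members was 0.07, beside -0.06 for all genes, and the median of its size was 1.54 beside 0.64.

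**Figure D1:**
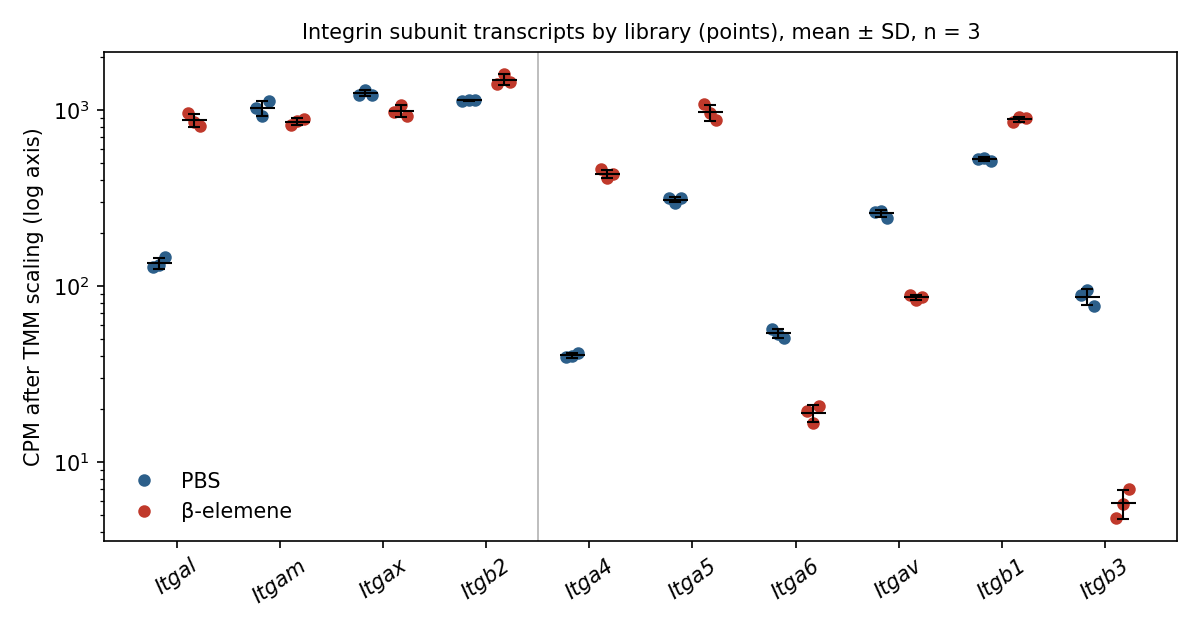
Normalised counts (CPM, counts scaled to a common total) after TMM scaling, on a log axis, for each of the 10 integrin subunits in 3 PBS (blue) and 3 β-elemene (red) libraries, with mean ± SD as black bars and the beta-2 family left of the grey line. Itgal and Itga4 sit far higher with β-elemene and Itgb3 far lower, while Itgam, Itgax and Itgb2 stay within a narrow band.

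Levels are given as CPM after TMM scaling, a method that sets libraries to a common scale through the bulk of their genes. Total gene counts were 18916844 to 20729887 per library, and the limit that a count of 0 allows (3 counts) is 0.116 to 0.195 CPM. TMM factors lay between 0.794 and 0.812 for β-elemene but between 1.24 and 1.26 for PBS, so the choice of scaling moves every fold change. With library size alone the median of all genes shifts by -0.64 on the log2 scale, and with the upper quartile by -0.32. Members whose direction or call rests on that choice are named below. Because the RNA came from whole cultures, fewer cells of a type and less RNA per cell cannot be told apart.

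Among the beta-2 alpha subunits, Itgal, the CD11a chain of LFA-1 that binds ICAM-1, rose (chromosome 7, 127296139 to 127335137, GRCm38.p6). Its level was 959, 856 and 815 CPM in β-elemene libraries 1, 2 and 3, and 128, 131 and 146 CPM in the PBS libraries. The lowest β-elemene library thus lay far above the highest PBS library, and the log2 fold change was 2.70 (SE 0.08, edgeR adjusted p = 2.16e-12), or 6.49-fold.

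Itgam, the CD11b chain of the complement receptor Mac-1 and a common myeloid marker, was slightly lower (chromosome 7, 128062640 to 128118491). It stood at 820, 871 and 891 CPM with β-elemene and at 1028, 928 and 1127 CPM with PBS. The groups came close without overlapping, and the log2 fold change was -0.26 (SE 0.08, edgeR adjusted p = 0.00728). Without β-elemene replicate 1 the call was lost (log2 fold change -0.20, edgeR adjusted p = 0.052), while library size alone gave -0.89. The annotated gene Gm49368 shares 3450 exon bases with Itgam on the same strand in GENCODE M21. It has no counts of its own in the count table, and its part in the Itgam counts was not tested. Gm13684, which shares 634 exon bases with Itgav on the opposite strand, has none there either.

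Itgax, the CD11c chain used as a marker of dendritic cells and of some tissue macrophages, starts 11034 bases past the end of Itgam (chromosome 7, 128129526 to 128150657). Its values were 971, 1074 and 921 CPM with β-elemene and 1227, 1305 and 1219 CPM with PBS. All β-elemene libraries were lower, by 0.34 on the log2 scale (log2 fold change -0.34, SE 0.07, edgeR adjusted p = 6.40e-04), and the fall grew to -0.98 with library size alone. Itgad, the next beta-2 alpha gene 23275 bases further on, stood at 3.0 ± 0.729 CPM against 2.21 ± 0.615 (SD, n = 3) and did not pass (log2 fold change 0.43, edgeR adjusted p = 0.141). Dendritic cell markers were scarce in these libraries: the 7 listed genes summed to 4.30 to 11.5 CPM with β-elemene and 4.11 to 4.93 CPM with PBS. Of the 3 that were tested, 2 rose and 1 fell, where 36.6% of all genes tested rose and 40.2% fell. The chemokine receptor gene Ccr7 stood at 5.66 ± 3.57 and 0.610 ± 0.422 CPM. Zbtb46, a transcription factor gene of classical dendritic cells and the most abundant of the list with PBS, was named after its values were seen and went the other way, at 0.691 ± 0.408 and 3.26 ± 0.581 CPM (log2 fold change -2.23). The part of these markers in the Itgax difference was not tested.

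Itgb2, the beta chain that all of these alpha chains need to reach the surface (chromosome 10, 77530329 to 77565708), was the most abundant member per length in both groups. It stood at 1417, 1611 and 1451 CPM with β-elemene and at 1129, 1137 and 1146 CPM with PBS. The log2 fold change was 0.39 (SE 0.07, edgeR adjusted p = 1.19e-04), but its direction rests on the scaling. It was 0.08 with the upper quartile (adjusted p = 0.284) and -0.24 with library size alone (adjusted p = 0.00398).

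Among the alpha subunits that pair with Itgb1, Itga4 had the largest rise of the 10 members (chromosome 2, 79255426 to 79333114). This gene encodes CD49d, the alpha chain of VLA-4, which binds VCAM-1 and fibronectin. Its level was 461, 411 and 432 CPM with β-elemene and 39.5, 39.8 and 41.6 CPM with PBS. The 3 PBS libraries were almost equal, and the log2 fold change was 3.43 (SE 0.06, edgeR adjusted p = 4.71e-14), or 10.8-fold. Exons of Itga4 share 1124 bases with Cerkl on the opposite strand. The summed count of Cerkl was 92 with β-elemene and 113 with PBS, against 20848 and 3112 for Itga4.

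Itga5, the alpha chain of the classical fibronectin receptor (chromosome 15, 103344286 to 103366791), rose as well. It was measured at 1079, 958 and 874 CPM with β-elemene and 315, 297 and 317 CPM with PBS. Even the lowest β-elemene library exceeded every PBS library, 3.13-fold on average (log2 fold change 1.65, SE 0.08, edgeR adjusted p = 2.62e-10).

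Itga6, an alpha chain of laminin receptors (chromosome 2, 71786886 to 71858427), went the other way. Its libraries held 19.6, 16.7 and 20.7 CPM with β-elemene and 57.2, 53.7 and 50.8 CPM with PBS. It fell by 1.5 on the log2 scale (SE 0.08, edgeR adjusted p = 1.80e-09), so that Itga4, Itga5 and Itga6 did not all move in 1 direction.

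Itgb1 itself (chromosome 8, 128685654 to 128733579) stood at 852, 912 and 897 CPM with β-elemene and 528, 538 and 512 CPM with PBS. The log2 fold change was 0.75 (SE 0.06, edgeR adjusted p = 5.66e-08), with groups well apart. With library size alone it was 0.12 and did not pass (adjusted p = 0.0766).

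Itgav (chromosome 2, 83722303 to 83806917), the alpha chain shared by receptors for vitronectin and osteopontin, fell. It stood at 88.8, 83.6 and 86.6 CPM with β-elemene and 265, 268 and 244 CPM with PBS. The groups were far apart, and the log2 difference was -1.58 (SE 0.06, edgeR adjusted p = 2.27e-11). Itgb3, its partner in the alpha-V beta-3 receptor that is prominent on osteoclasts (chromosome 11, 104608000 to 104670476), had the largest fall of the 10 members. Its level was 4.8, 5.79 and 6.99 CPM with β-elemene and 89.2, 95 and 77.4 CPM with PBS. The log2 fold change was -3.89 (SE 0.12, edgeR adjusted p = 3.23e-11), or 14.9-fold lower, and the 3 β-elemene libraries together held 281 counts against 6735.

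Genes used as osteoclast markers did not share one direction beside that fall. Of 8 listed, 6 were tested, of which 3 rose and 2 fell, where 36.6% of all genes tested rose and 40.2% fell. Acp5, the tartrate-resistant acid phosphatase, was their most abundant member and stood at 464 ± 70.7 CPM with β-elemene against 156 ± 7.90 with PBS (SD, n = 3). Ocstamp, a gene needed for fusion of osteoclast precursors and chosen here after its values were seen, stood at 0.895 ± 0.238 against 11.2 ± 1.47 CPM. The summed level of the list was 537 to 670 CPM with β-elemene and 257 to 269 CPM with PBS, most of it Acp5. The part of the list in the fall of Itgb3 was not tested.

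**Figure D2:**
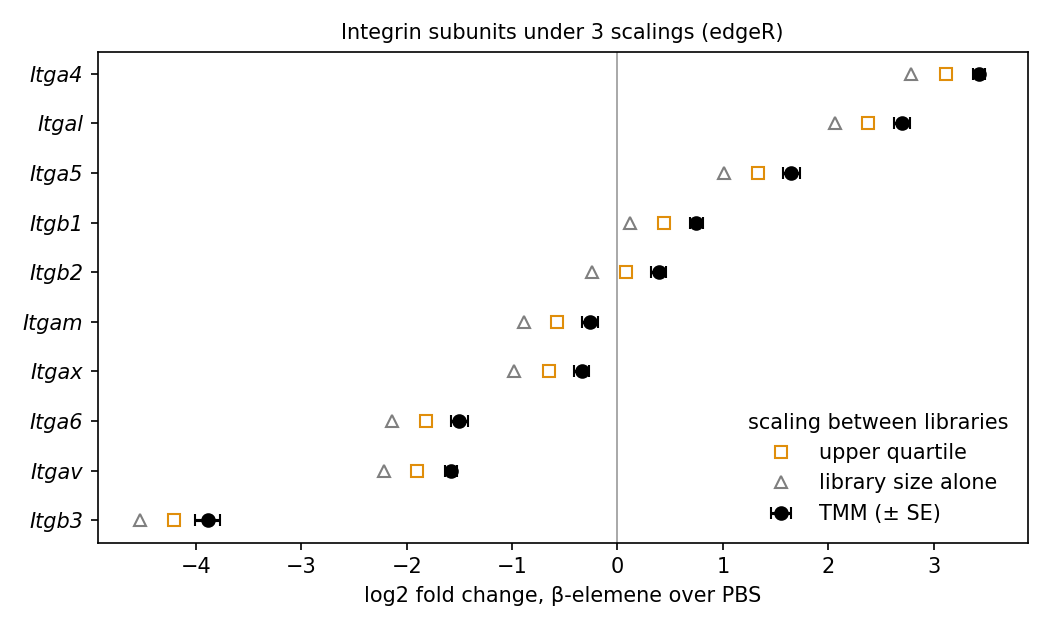
Log2 fold change of each integrin subunit, β-elemene over PBS, with TMM scaling (black circles, bars ± SE), the upper quartile (orange squares) and library size alone (grey triangles). The order of the genes is the same under all 3, and Itgb2 is the one that crosses 0, from 0.39 to -0.24.

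Levels of different genes were compared per kilobase of exon (mean CPM per kb). With PBS the order from the top was Itgb2 (383), Itgax (289), Itgam (209), Itgb1 (138), Itga5 (70.7), Itgav (36.7), Itgal (21.2), Itgb3 (15.1), Itga6 (12.4) and Itga4 (4.13), and no 2 neighbours in that order overlapped in their 3 libraries. With β-elemene it was Itgb2 (503), Itgb1 (232), Itgax (228), Itga5 (221), Itgam (175), Itgal (137), Itga4 (44.5), Itgav (12.2), Itga6 (4.36) and Itgb3 (1.01). There the ranges of Itgb1 and Itgax overlapped, as did those of Itgax and Itga5, so their places are not told apart. Itga4 moved from the last of the 10 places to the seventh, above Itgav, Itga6 and Itgb3. Itgal passed Itgav but stayed below Itgam and Itgax.

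Because the size of the Itgb1 and Itgb2 differences depends on the scaling between libraries, alpha and beta subunits were also compared as count ratios within each library, which no such scaling can move. For all 8 pairs the groups did not overlap, where 79.9% of all genes taken singly did not. That share was not computed for ratios of other gene pairs, and the 8 pairs have subunits in common. With 3 libraries against 3, the smallest p that the two-sided exact permutation test can give is 0.1, and each pair gave it (0.1 after adjustment over the 8 pairs), so none can reach 0.05.

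The Itgal to Itgb2 ratio was 0.677, 0.532 and 0.562 with β-elemene and 0.114, 0.115 and 0.127 with PBS, 4.95-fold higher. Against the same beta chain, Itgam fell short of its PBS ratio (0.579, 0.541 and 0.614 against 0.911, 0.816 and 0.984), a difference of -0.64 in mean log2 ratio. The Itgax to Itgb2 ratio was lower by a similar amount, -0.73. Relative to their beta chain, Itgal was thus higher and both Itgam and Itgax were lower in every β-elemene library.

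The Itga4 to Itgb1 ratio was 0.540, 0.450 and 0.482 with β-elemene and 0.0749, 0.0741 and 0.0814 with PBS, 6.38-fold higher. Itga5 to Itgb1 differed by 0.89 in mean log2 ratio, upward with β-elemene. Itga6 and Itgav both lost ground against Itgb1, with differences of -2.26 and -2.34 in mean log2 ratio. Itgb3 fell further than Itgav: the Itgav to Itgb3 ratio was 18.4, 14.4 and 12.3 with β-elemene and 2.97, 2.82 and 3.15 with PBS, 4.98-fold higher.

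**Figure D3:**
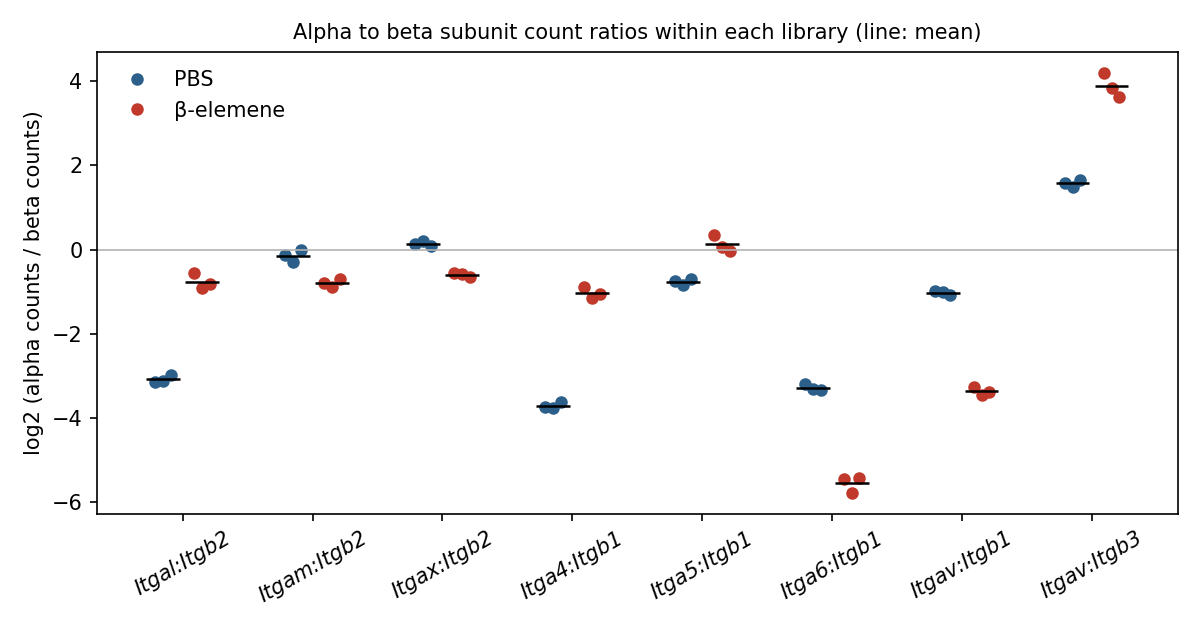
Log2 ratio of alpha to beta subunit counts within each library for 8 pairs that form heterodimers, with PBS in blue, β-elemene in red and a line at each mean. Ratios with Itgal and Itga4 are higher in every β-elemene library, and those of Itga6 and Itgav to Itgb1 are lower.

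The balance among the 3 beta-2 alpha members was measured as the share of each of Itgal, Itgam and Itgax in their sum per length, without Itgad. Itgal held 27.8%, 24.0% and 24.5% in the β-elemene libraries and 3.92%, 4.02% and 4.29% in the PBS libraries. Its mean share was 25.4 ± 2.05% against 4.08 ± 0.192% (SD, n = 3). Itgax held 42.2 ± 1.90% against 55.7 ± 3.16%, and Itgam 32.4 ± 2.06% against 40.2 ± 3.04%. The exact two-sided permutation p was 0.1 for each (0.1 after adjustment over the 3 shares), again the smallest possible. Itgax kept the largest share in all 6 libraries.

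For Itga4, Itga5, Itga6 and Itgav, the members that pair with Itgb1, the same shares were computed after the values had been seen and are given as a description. Other alpha partners of Itgb1 are outside these sums, among them Itga9, which stood at 23.0 ± 3.69 CPM with β-elemene against 19.7 ± 1.92 (SD, n = 3) and did not pass. Itga5 made up 78.3 ± 1.57% of their sum per length with β-elemene and 57.1 ± 1.67% with PBS (SD, n = 3). Itga4 made up 15.8 ± 1.02% against 3.33 ± 0.139%. Itgav shrank to 4.35 ± 0.331% from 29.6 ± 1.43%, and Itga6 to 1.55 ± 0.235% from 9.97 ± 0.448%. Summed per length, these 4 alpha subunits stood at 1.39, 1.16 and 1.11 times Itgb1 with β-elemene and 0.916, 0.867 and 0.916 times with PBS. Itgav and Itga4 also pair with beta subunits other than Itgb1, which this ratio leaves out. Itgal, Itgam and Itgax together stood at 1.13, 1.03 and 1.07 times Itgb2 with β-elemene and 1.35, 1.33 and 1.38 times with PBS.

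**Figure D4:**
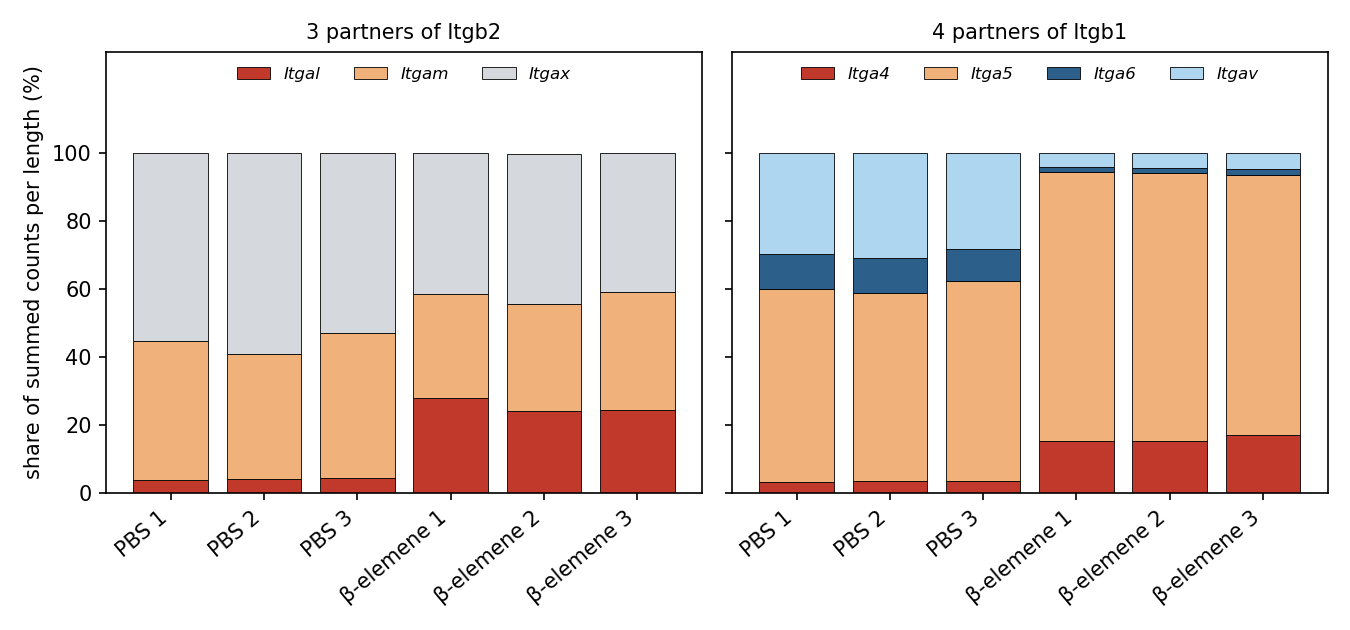
Share of each alpha subunit in summed counts per length, in percent, for the members that pair with Itgb2 (left) and with Itgb1 (right), with 1 bar per library. Itgal grows from about 4.08% to 25.4% of the left bars, and Itga4 and Itga5 together fill nearly all of the right bars with β-elemene.

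Beyond the 10 members, 17 other integrin subunit genes were listed, of which 8 were tested, 2 rose, 2 fell and 4 did not pass. Their median log2 fold change was 0.33. Of all genes tested, 36.6% rose and 40.2% fell. Itgb8, a beta partner of Itgav in the receptor that activates latent TGF-beta, stood at 40.1, 35.2 and 33.8 CPM with β-elemene and 0.852, 0.932 and 1.36 CPM with PBS. The log2 difference was 5.11 (SE 0.15, edgeR adjusted p = 1.89e-12), larger in size than that of any member. Itgb5, another beta partner of Itgav, fell from 272, 311 and 261 CPM with PBS to 115, 127 and 109 CPM with β-elemene (a log2 difference of -1.27, SE 0.08, edgeR adjusted p = 5.28e-09). Itgb7, the second beta partner of Itga4, rose by 0.73, a call lost with library size alone (0.09, adjusted p = 0.474). Itga8 was scarce, at 1.80 ± 0.0766 CPM with PBS (SD, n = 3), and fell by 2.41 on the log2 scale. Leaving out β-elemene replicate 2 brought Itga9 (log2 fold change 0.35, edgeR adjusted p = 0.00902) and Itga2b (0.74, adjusted p = 0.0399) past the threshold, which made 4 rises. Without PBS replicate 2 Itgad passed too (0.68, adjusted p = 0.0373), which made 3.

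Of the beta subunits that can pair with Itgav, Itgb1, Itgb3, Itgb5 and Itgb8 were set side by side per length, also after the values had been seen. Itgb1 held 85.4 ± 0.786% of their sum with β-elemene and 58.4 ± 1.66% with PBS (SD, n = 3). Itgb5 held 12.7 ± 0.768% against 35.1 ± 1.46%. Itgb3 held 0.372 ± 0.0655% against 6.38 ± 0.365%, and Itgb8 1.59 ± 0.193% against 0.0534 ± 0.0164%. The 2 scarce partners thus changed places, Itgb3 above Itgb8 in every PBS library and below it in every β-elemene library.

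Integrins are switched on from inside the cell by adaptors that bind the beta tail, such as talin and kindlin, under the small GTPase RAP1. Of 34 genes for activation and cytoskeletal adaptors, 29 were tested, 18 rose, 7 fell and 4 did not pass. Their median log2 fold change was 0.44 beside -0.06 for all genes tested, of which 36.6% rose and 40.2% fell. Rap1b, a RAP1 gene, rose by 1.91 (SE 0.06), from 397 ± 8.71 to 1498 ± 43.4 CPM (SD, n = 3). Lims1, which encodes PINCH-1 of the complex with integrin-linked kinase, and Tln2, talin 2, rose by 1.96 each. Dok1, an adaptor that can displace talin, and Cytip, a cytohesin partner that restrains adhesion, rose by 1.44 and 1.41. Tns1, tensin 1, which ties integrins to actin, stood at 0.731 ± 0.0525 CPM against 27.7 ± 1.16 with PBS (log2 fold change -5.24). Flna, filamin A, was the most abundant of the list and rose by 0.96. Tln1 and Fermt3, the talin and kindlin genes of blood cells, are named after their values were seen: Tln1 rose by 1.31 and Fermt3 fell by 0.69 on the log2 scale. With library size alone 11 of the list rose and 15 fell, where 2166 of all genes rose and 8003 fell.

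Ligand-bound integrins signal through SRC and SYK family kinases, FAK and PYK2. Of 23 genes of this outside-in pathway, 22 were tested, 18 rose, 3 fell and 1 did not pass. The list had a median log2 fold change of 0.48, and of all genes tested 36.6% rose and 40.2% fell. Lyn, a SRC family kinase, rose by 2.89, from 85.7 ± 5.34 to 637 ± 37.1 CPM (SD, n = 3), while Fgr and Fyn fell by 0.83 and 1.12 on the log2 scale. Ptk2, which encodes FAK, rose by 3.0 and Ptk2b, which encodes PYK2, by 2.30. Syk was the most abundant of these genes and rose by 2.08, from 354 ± 19.5 to 1493 ± 111 CPM. The balance of this list depends on the scaling too, with 10 rising and 11 falling with library size alone and 11 rising and 6 falling with the upper quartile.

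Of 35 ligand and counter-receptor genes, 24 were tested, 12 rose, 9 fell and 3 did not pass (median log2 fold change 0.44). Of all genes tested, 36.6% rose and 40.2% fell. With library size alone the balance of the list turned, to 10 rises and 11 falls, where 2166 of all genes rose and 8003 fell. Vcam1, a ligand of the Itga4 receptor, stood at 404, 367 and 347 CPM with β-elemene and 17.5, 17.6 and 16.1 CPM with PBS (a log2 difference of 4.45, SE 0.08, edgeR adjusted p = 2.48e-14). Icam1, the ligand of LFA-1, was named after its values were seen and rose by 3.33, from 174 ± 11.8 to 1750 ± 69.9 CPM (SD, n = 3). Genes for matrix proteins went both ways. Thbs1, thrombospondin 1, Tnc, tenascin C, and Fbn1, fibrillin 1, rose by 6.88, 6.87 and 3.95. Fn1, fibronectin, also named after its values were seen, was at 169, 198 and 133 CPM with β-elemene and 701, 675 and 717 CPM with PBS (log2 fold change -2.07). Spp1, which encodes osteopontin, was the most abundant ligand gene and fell by 2.44, from 7266 ± 279 to 1337 ± 96.3 CPM. Col1a1, a collagen I chain, fell by 2.70 from 3.15 ± 0.345 CPM.

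Genes for proteins that associate with integrins at the membrane were split as well. Of 18 listed, 17 were tested, 9 rose, 5 fell and 3 did not pass (median log2 fold change 0.21). Among all genes tested, 36.6% rose and 40.2% fell. Cav1, caveolin 1, rose by 4.30 and Plaur, the urokinase receptor that associates with Mac-1, rose by 3.59, from 23.3 ± 1.11 to 281 ± 24.1 CPM (SD, n = 3). The tetraspanin genes Cd151 and Tspan4 fell by 1.95 and 1.77 on the log2 scale. Cd151 is known as a partner of laminin-binding integrins. Lgals3, galectin-3, was the most abundant of this list and fell by 0.52, and Sirpa fell by 0.39. Scaling by library size alone gave 4 rises and 11 falls, and the upper quartile 5 and 7.

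**Figure D5:**
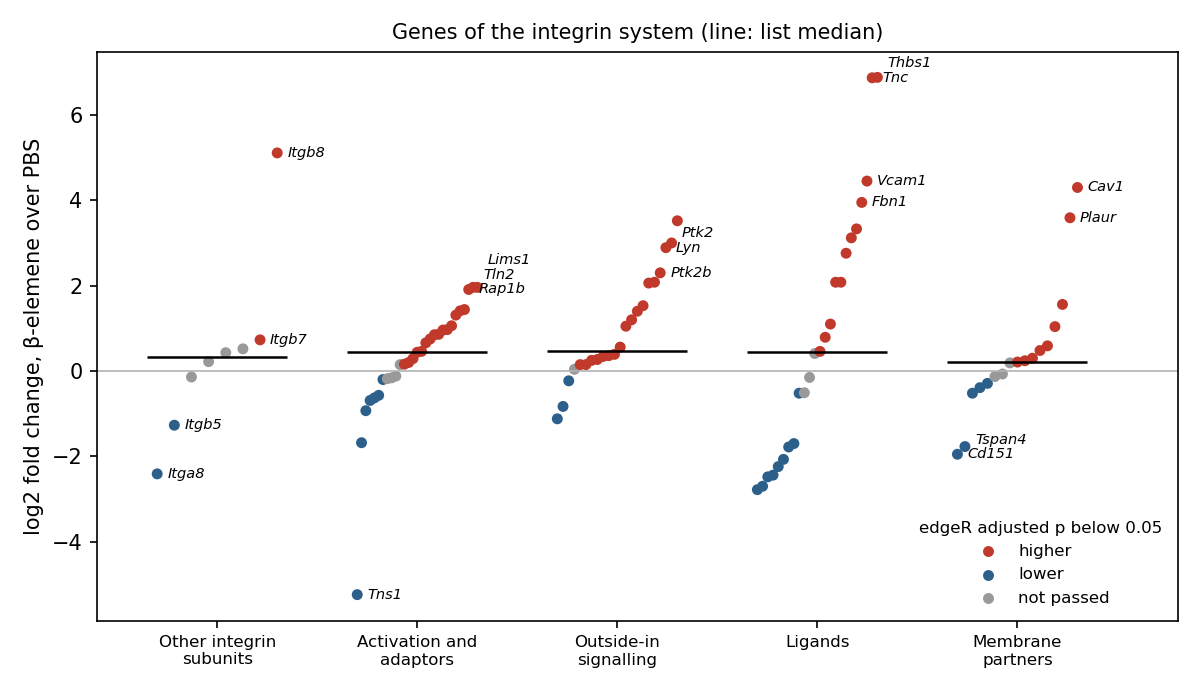
Log2 fold change, β-elemene over PBS, of every tested gene in the 5 lists around integrins, coloured by edgeR call, with a black line at each list's median and most of the leading genes named. Each list spans both directions, with Itgb8 at 5.11 and Tns1 at -5.24 among the extremes.

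The genes whose pattern over the 6 libraries lay closest to a member were found among 8741 genes of at least 5 CPM, by the distance between log2 CPM values centred for each gene. For Itga4 they were Pde4b (0.10), Kpna3 (0.13) and Gpd2 (0.15), with log2 fold changes of 3.40, 3.37 and 3.35. For Itgb3 they were Dhcr7 (0.30), Tnfrsf26 (0.30) and Olfml3 (0.34), with log2 fold changes of -4.03, -3.83 and -4.08. With 2 groups of 3 libraries, this distance reflects mainly the difference between groups.

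The macrophage label was checked on 8 marker genes, which were all tested and summed to 15839 to 16345 CPM with β-elemene and 12537 to 13441 CPM with PBS. Lyz2, lysozyme, was the most abundant at 9203 ± 398 against 6776 ± 378 CPM (SD, n = 3), and 6 of the 8 rose and 2 fell. Csf1r, the receptor for the growth factor in the medium and named after its values were seen, had a mean of 928 ± 66.1 CPM in the β-elemene libraries against 2672 ± 82.3 CPM (log2 fold change -1.53). Carcinoma and epithelial markers were nearly absent, at 0 to 0.0615 CPM in sum with β-elemene and 0 to 0.155 CPM with PBS, with Krt18 at 1 and 2 counts in all and Krt19 and Cldn4 at 0 in every library. T cell markers summed to 5.47 to 7.60 CPM with β-elemene and 5.19 to 6.88 with PBS, most of it Cd4 (Cd3e and Cd3g were at 0 in the β-elemene libraries), and B cell markers to at most 1.11 CPM in any library. Mast cell and basophil markers, led by Kit and with Fcer1a at 0, summed to at most 2.33 CPM. Neutrophil markers summed to 531 to 638 CPM with β-elemene and 540 to 586 with PBS. Nearly all of it was Csf3r, the receptor for granulocyte colony-stimulating factor, at 577 ± 61.4 and 550 ± 23.6 CPM. Of the 6 tested, 3 rose, 2 fell and Csf3r did not pass. The rest were scarce: S100a8 stood at 15.8 ± 1.13 and 4.03 ± 0.765 CPM, Mpo at 0.145 ± 0.141 and 1.54 ± 0.415, and Ly6g at 0.083 ± 0.0933 and 0. Fibroblast markers summed to 17.8 to 24.8 CPM against 10.6 to 13.2, and the sum hides opposite directions. Pdgfrb was the 1 of 4 tested that rose, at 18.1 ± 3.16 against 2.18 ± 0.168 CPM, while the collagen I genes Col1a1 and Col1a2 fell by 2.70 and 2.73 on the log2 scale and the list's median was -1.59. Endothelial markers summed to 116 to 182 CPM against 21.2 to 23.4, of which 2 of 3 tested rose and 1 fell. The VEGF receptor gene Kdr stood at 143 ± 32.5 and 3.85 ± 1.21 CPM, and Cdh5, a defining marker, at 1.27 ± 0.0703 and 0.272 ± 0.0679 CPM. Pecam1, which made up most of the PBS sum, was lower, at 2.28 ± 0.789 against 18.3 ± 2.32 CPM (log2 fold change -2.99). Cdh5, Pecam1, Col1a2, S100a8, Mpo and Ly6g were named after their values were seen. The part of these other markers in the integrin differences was not tested. Beside these marker counts, 36.6% of all genes tested rose and 40.2% fell.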

How the data were processed

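Per the labels' protocols, libraries were stranded, poly(A)-selected and made only from RNA of integrity 7 or more. Per the submitters' processing notes, the builds are mm10 and GRCm38.p6 and a tool is HISAT2 2.2.1.0, with no roles stated. The values are whole-number gene counts as deposited, with the counter and its strand setting not given in the sources used here. Groups and replicate numbers came from sample titles. Genes passed filterByExpr at a minimum count of 10 and a total of 15, and were scaled with TMM and fitted by edgeR's quasi-likelihood method (edgeR 4.0.16, R 4.3.3, glmQLFit with robust estimation, 4 residual degrees of freedom, group as the only term). Adjustment was Benjamini-Hochberg over 11459 genes at 0.05. Each SE is the size of the log2 fold change over the square root of F. Ratios had 0.5 counts added. Lengths were unions of exons of protein-coding transcripts in the GENCODE M21 basic set. Coordinates came from RefSeq for GRCm38.p6, the build of both tables. Alternatives were other scalings, other filters, DESeq2 1.42.0, limma-voom (limma 3.58.1), a replicate block, each library left out and, chosen after seeing the data, another length. The test was also run on simulated data in which few genes changed and no scaling difference between groups was set. That run therefore says nothing on the choice of scaling.

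The members and lists were chosen with earlier results of these data known. Named genes were the members, the leading passing genes of each list (up to 4 of at least 1 CPM, with up to 2 of the opposite sign), each list's most abundant gene, and the nearest patterns; 1 gene that this rule names is not reported here. No 2 replicates agreed within sampling noise (chi-square per degree of freedom 3.82 to 13.8). The listed gene Trbc2 had no match, and 27 symbols stored as date numbers were restored by gene identifier.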

Additional observations from a re-analysis of the deposited data

How the results depend on the processing

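Of 140 values of the 10 members under alternatives, 136 kept their direction and their side of the threshold. The calls of Itgam without β-elemene replicate 1, Itgb1 with library size alone and Itgb2 with the upper quartile were lost, and Itgb2 reversed to -0.24 with library size alone. With that scaling 3 members and 2166 of all genes rose and 8003 fell. In the lists it gave 1 rise and 4 falls for other subunits, 11 and 15 for adaptors, 10 and 11 for outside-in genes, 10 and 11 for ligands, and 4 and 11 for membrane partners. The upper quartile gave 11 and 6 for outside-in genes and 5 rises for membrane partners. Leaving out 1 library gave 2 to 4 rises among other integrin subunits. Signs also reversed with library size alone for Lyz2 (-0.19), Csf3r (-0.57), Cd4 (-0.49), Itga2b (-0.12), Itga9 (-0.41) and Itgad (-0.20). They reversed with the upper quartile for Csf3r (-0.25), Cd4 (-0.17) and Itga9 (-0.09), and for Itga1 the value ran from -0.23 to 0.01 over the libraries left out in turn. The cause was not tested beyond the shift that a scaling gives to all genes. The difference in share between groups was 26.6 percentage points for Itgal and -10.9 for Itgam on counts, and 23.5 for Itgal with the longest transcript as length.

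Same-numbered libraries correlated at 0.01, 0.13 and 0.06 in their deviations from the group means over 9066 genes, so the numbers were not taken as pairs. With a replicate block 5 members rose, 5 fell and 8793 genes were called, against 8791. For ratios and shares in pairs the smallest exact p is 0.25.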
